A study of Mus musculus with 149 samples.

Results

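The genes described here are those whose symbol starts with Mrpl or Mrps followed by a digit, the protein genes of the mitochondrial ribosome. The rule found 76 of the 20308 mouse genes in the deposited table, 47 with Mrpl and 29 with Mrps symbols, spread over 17 chromosomes. They were measured by single-cell RNA sequencing of 149 cells from the liver of 1 wildtype male C57BL/6 mouse of 8 weeks, untreated as far as the labels say. The liver was perfused and digested, low-speed spins enriched for hepatocytes, and single cells were caught in the traps of Fluidigm C1 chips of 3 sizes: 80 cells on the large chip (17 to 25 µm), 30 on the medium chip (10 to 17 µm) and 39 on the small chip (5 to 10 µm). Each chip is 1 sample of the same animal, so differences between chips have no replicate check, no p-value is given, and every SD is a spread over cells or over the 3 chips.

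The mitochondrial ribosome translates the few messages of the mitochondrial genome, which encode core subunits of the respiratory chain and ATP synthase. Its RNAs come from mitochondrial DNA, whereas all of its proteins are encoded in the nucleus, made in the cytosol and imported, and many have no bacterial counterpart. Mrpl symbols were given to large-subunit and Mrps symbols to small-subunit proteins, although the products of Mrps18a and Mrps30 were later placed in the large subunit and that of Mrps36 in the oxoglutarate dehydrogenase complex. In liver the demand on mitochondria is high, and hepatocytes differ along the lobule: periportal cells near the incoming blood carry much of the oxidative metabolism and ureagenesis, and pericentral cells near the central vein carry glutamine synthesis and much of the cytochrome P450 activity.

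Nuclear genes of mitochondrial proteins are known for promoters with sites of NRF1, of ETS factors such as GABPA, and of YY1. Promoter windows of 300 bases (250 before the RefSeq start, 50 from it on, GRCm38.p6) were found for 67 of the 76 genes, 73 windows in all. The motifs searched, on both strands, were CCGGAAG for ETS factors, AAGATGGC for YY1, CCAAT for NF-Y, TATAAA for the TATA box and the NRF1 palindrome with any base at the inner position of its first half-site. None of these words lies inside another. The ETS word stood in 32.9% of the Mrp windows, against 18.7% of the 8599 windows of all genes tested below and 8.86% of all 32851 windows. The YY1 word occurred in 16.4% (4.90% of windows of tested genes, 2.75% of all) and the NRF1 word in 16.4% (10.6% and 4.60%). At least one of these 3 was present in 41 of the 73 Mrp windows (56.2%), against 30.3% for tested genes. CCAAT (41.1%, 38.4% and 37.4%) and TATAAA (6.85%, 7.64% and 13.6%) were about as frequent in Mrp windows as in those of tested genes. A match describes the letters only, and no occupancy was measured here.

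A few promoters are shown, each from 250 bases before the start through the first 30 bases of the transcript, with the matched words in capitals. The Mrpl32 window holds the full NRF1 palindrome, with the YY1 word and CCAAT on the other strand, and lies towards the divergent proteasome gene Psma2. The Mrps11 window, with 1 YY1 word, overlaps by 141 bases the window of Mrpl46: the RefSeq starts of these Mrp genes lie 42 bases apart on opposite strands. Mrps18a and Mrps18c are paralogues whose products descend from the same bacterial protein. The Mrps18a window has an ETS word 26 bases before the start, a YY1 word within the first bases of the transcript and CCAAT, and the Mrps18c window has 1 ETS word.
Mrpl32 (chr13:14613008-14613287, minus strand): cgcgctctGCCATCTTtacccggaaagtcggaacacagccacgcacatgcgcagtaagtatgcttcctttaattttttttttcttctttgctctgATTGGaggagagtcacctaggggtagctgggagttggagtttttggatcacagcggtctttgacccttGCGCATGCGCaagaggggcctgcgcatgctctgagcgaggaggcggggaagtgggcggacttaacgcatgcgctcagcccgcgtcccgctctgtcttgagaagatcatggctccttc
Mrps11 (chr7:78782881-78783160, plus strand): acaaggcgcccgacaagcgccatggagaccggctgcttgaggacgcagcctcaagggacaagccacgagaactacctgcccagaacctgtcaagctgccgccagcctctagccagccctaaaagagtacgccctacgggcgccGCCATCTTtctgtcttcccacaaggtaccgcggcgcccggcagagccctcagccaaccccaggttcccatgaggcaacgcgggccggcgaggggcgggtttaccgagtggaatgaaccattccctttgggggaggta
Mrps18a (chr17:46110754-46111033, plus strand): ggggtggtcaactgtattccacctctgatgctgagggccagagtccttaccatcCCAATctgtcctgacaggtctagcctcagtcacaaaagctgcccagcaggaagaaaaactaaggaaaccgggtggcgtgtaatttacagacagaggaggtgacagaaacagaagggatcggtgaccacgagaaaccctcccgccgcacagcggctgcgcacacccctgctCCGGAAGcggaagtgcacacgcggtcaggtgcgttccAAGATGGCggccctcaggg
Mrps18c (chr5:100798509-100798788, plus strand): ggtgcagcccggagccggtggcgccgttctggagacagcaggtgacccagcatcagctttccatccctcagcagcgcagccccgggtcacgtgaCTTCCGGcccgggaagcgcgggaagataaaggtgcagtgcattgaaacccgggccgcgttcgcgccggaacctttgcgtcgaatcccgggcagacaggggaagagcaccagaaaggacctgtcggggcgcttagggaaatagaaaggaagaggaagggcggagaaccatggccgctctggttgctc

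The chips differ in the spike-in share of their cells and in the number of mouse genes above 0, which touches every result below. Both come from normalised values, so the amount of mouse RNA per cell was not measured. ERCC spike-ins, synthetic RNAs in the lysis mix, made up 3.66%, 82.7% and 82.8% of the summed values in the median cell of the large, medium and small chip. Their share was under 50% in 64, 7 and 12 cells of the 3 chips. The median number of mouse genes above 0 was 7389.5, 2306.5 and 3087. All 149 cells had at least 3 of 10 hepatocyte markers above 0. The summed level of these 10 ran from 0.627% to 9.01% of mouse values (large), 0.982% to 15.4% (medium) and 0.0865% to 11.9% (small). The rule separates no cells here and does not show that every cell is a hepatocyte. At least 3 of 10 endothelial markers were above 0 in 14 large-chip, 2 medium-chip and 5 small-chip cells (summed level at most 1.17% of mouse values), and 3 of 10 Kupffer cell markers in 0, 8 and 12 cells (at most 2.74%; 4 of the 10 were at 0 in every large-chip cell). The Mrp share described below had a median of 0.141% in small-chip cells with and 0.0936% in those without Kupffer markers, and of 0.275% and 0.265% in medium-chip cells; the part of these cells in the chip values was not tested. At least 3 of 7 bile duct markers were above 0 in 24, 0 and 4 cells, 3 of 10 stellate markers in 1, 0 and 0, and 3 of 9 blood cell markers in no cell.

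Most Mrp genes had a value in most large-chip cells, and in about 1 in 3 cells of the other chips. All 76 genes were above 0 in at least 20% of the 149 cells, the limit for a gene to be counted as tested here (8813 genes). On the large chip the genes were above 0 in a median of 81.2% of cells (range 48.8% to 97.5%), on the medium chip in 33.3% (10.0% to 73.3%) and on the small chip in 33.3% (7.69% to 87.2%). All 76 were above 0 in a larger share of large-chip cells than of medium-chip or small-chip cells. The same count was not made for all tested genes. Their medians were 72.5%, 30.0% and 30.8% on the large, medium and small chip, so they too were found more often on the large chip. At least 50% of the cells had a value for 75 of the 76 genes on the large chip, where 77.6% of all tested genes met that limit. On the other chips 13 of 76 (medium, background 23.4%) and 12 of 76 (small, background 23.9%) did, a smaller share than the background. At a limit of 20% of the cells the direction was the opposite. That limit was met by 75 (medium) and 66 (small) of the 76 Mrp genes, against 6602 and 6330 of the 8813 tested genes.

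**Figure D1:**
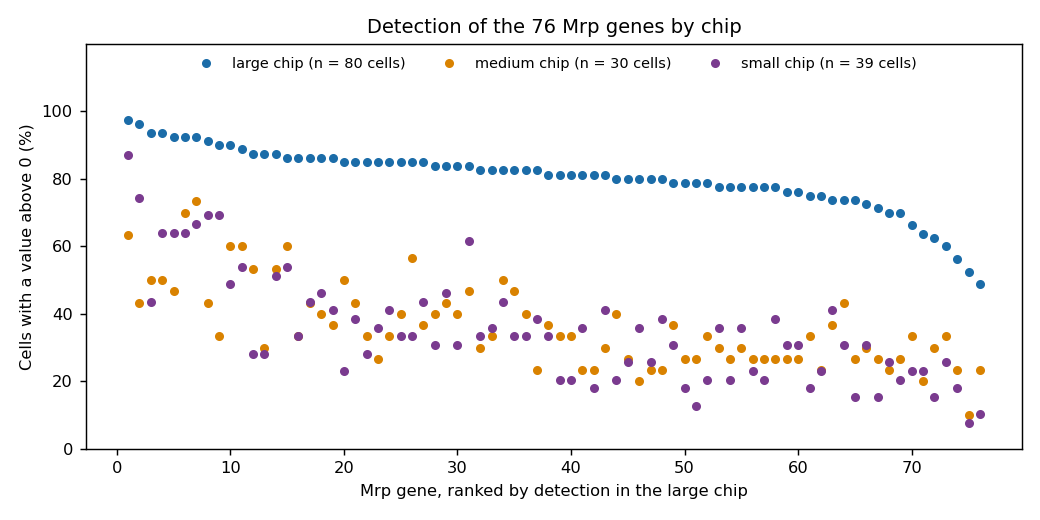
Each point is 1 of the 76 Mrp genes in 1 chip, ranked from left to right by the large chip; the vertical axis is the percentage of cells with a value above 0. The large-chip points run from 97.5% to 48.8% and lie above both other chips at every rank.

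Among the 64 large-chip cells with spike-ins under 50%, 60 genes were above 0 in at least 90% of cells (41.3% of all tested genes were). In all 64 cells 6 genes were above 0: Mrpl15, Mrpl18, Mrpl35, Mrpl42, Mrpl43 and Mrpl51. Mrpl51, a large-subunit protein, reached the highest share of cells on the large and on the small chip. It had a value in 78 of 80 cells of the large chip (97.5%, Clopper-Pearson 95% interval 91.3% to 99.7%) and in 34 of 39 of the small one. On the medium chip it had a value in 19 of 30 cells, where the highest share of any Mrp gene was 73.3%. The genes least often found were Mrps6, a homologue of a bacterial small-subunit protein, in 39 of 80, 7 of 30 and 4 of 39 cells, and Mrps30 in 42 of 80, 3 of 30 and 3 of 39. These intervals cover counting error only, since cells of 1 chip share 1 animal and 1 run.

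Counted per cell, the median number of Mrp genes above 0 was 72 on the large chip (range 10 to 76), 20 on the medium chip (6 to 75) and 20 on the small chip (4 to 76). The ranges of the chips overlap from end to end. Large-chip cells with spike-ins under 50% had a median of 73 (19 to 76) and the 16 others 25 (10 to 43). The medium-chip and small-chip cells under 50% had medians of 71 (n = 7) and 49 (n = 12). The number followed that of all mouse genes above 0, with a Spearman rho over cells of 0.86 on the large chip, 0.95 on the medium chip and 0.93 on the small chip; both are counts of the same libraries.

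Summed over a cell, the 76 genes made up 0.233% of the summed mouse values in the median large-chip cell (range 0.0327% to 0.387%; SD over cells 0.0735). On the medium chip the median was 0.265% (0.0119% to 0.468%; SD 0.147) and on the small chip 0.118% (0.0046% to 0.482%; SD 0.135). All 3 ranges overlap, and the widest gap between medians, medium against small, is about the SD over medium-chip cells. In cells with spike-ins under 50% the medians were 0.236%, 0.282% and 0.256%, against 0.189%, 0.190% and 0.0513% in the others. The low small-chip median thus came with its 27 high spike-in cells, of which the lowest had 0.0046%. For scale, cytosolic ribosomal protein genes took 1.13%, 1.05% and 1.07% of mouse values in the median cell of the 3 chips and nuclear genes of oxidative phosphorylation 1.32%, 0.992% and 0.745%.

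**Figure D2:**
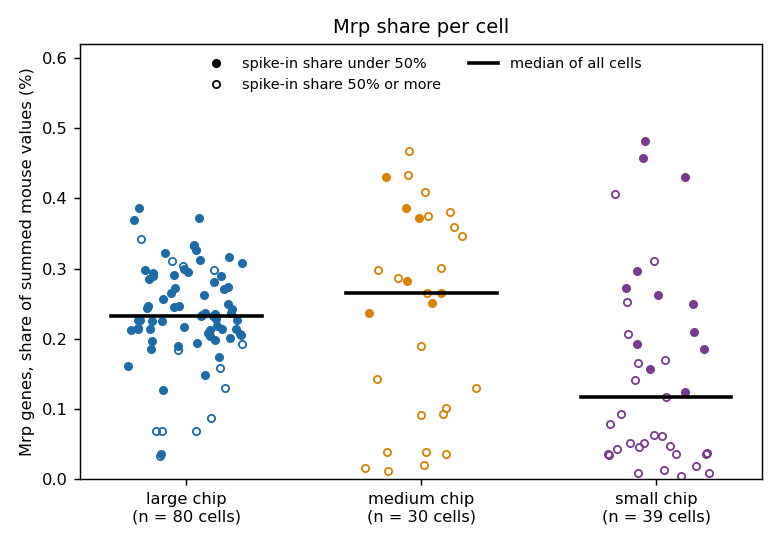
Each point is 1 cell; the vertical axis is the percentage of its summed mouse values taken by the 76 Mrp genes, open points are cells with spike-ins at 50% or more, and bars are medians over all cells of a chip. Filled points of the 3 chips lie in the same range, with medians of 0.236%, 0.282% and 0.256%, and most of the lowest values are open points.

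Levels of different genes were compared only after dividing values by transcript length, and the median gene with an Mrpl symbol then stood above the median gene with an Mrps symbol. The large-chip mean per kb of transcript had a median of 38.7 over the 47 Mrpl genes (2.52 to 277) and 22.9 over the 29 Mrps genes (1.95 to 209), a ratio of 1.69. The quartiles overlap: 23.5 to 70.5 for Mrpl and 14.7 to 67.3 for Mrps. With Mrps18a and Mrps30 counted in the large subunit and Mrps36 in neither, the medians were 38.7 (n = 49) and 20.3 (n = 26).

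Mrpl42, a large-subunit protein found in mitochondria and not in bacteria, had the highest level, 277 per kb. Its large-chip values had a lowest of 0, a median of 135 and a highest of 1646 (mean 183 ± 268 SD, n = 80). On the medium chip they were 0, 0 and 2252 and on the small chip 0, 0 and 1178, so the chips overlap while 17 of 30 and 22 of 39 cells were at 0. Next among the large-subunit genes came Mrpl20 (183 per kb), Mrpl27 (166), Mrpl30 (152) and Mrpl33 (136), homologues of bacterial ribosomal proteins. The bacterial counterpart of Mrpl27 reaches the peptidyl transferase centre. Reads of Mrpl27 may be split among pseudogene copies, but the sequences of such copies were not compared here for any Mrp gene. Mrpl20 ran from 0 through a median of 70.4 to 887 on the large chip, and Mrpl30 from 0 through 93.6 to 579.

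Mrps18c led the genes with Mrps symbols with 209 per kb: large-chip values of 0, 111 and 1314 (lowest, median, highest), against 0, 0 and 838 on the medium and 0, 0 and 348 on the small chip. Only 7 of 30 medium-chip and 15 of 39 small-chip cells had a value for it. Mrps21 (195 per kb), Mrps33 (183), Mrps14 (112) and Mrps36 (89.2), whose product is not in the small subunit, followed. Mrps33 was the most even of these on the large chip, with a mean of 131 ± 84.9 (SD, n = 80) and a median of 130. Mrps14 is a homologue of a bacterial protein of the small-subunit head and had a large-chip median of 182. Its highest value was 1679, in large-chip cell 64 with a spike-in share of 28.6%. That cell had 10 of 10 endothelial markers above 0 and was the highest large-chip cell for 9 Mrp genes. At the other end stood Mrps30 with 1.95, Mrpl19 with 2.52 and Mrpl3 with 3.39 per kb.

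Mean values were compared between chips as log2 ratios with a pseudocount of 1, and 2-fold or more was called a difference in these cells. Both comparisons share the large chip. For large over medium the median Mrp ratio was 0.59, the same as the 0.59 of all tested genes: 25 of 76 genes were at least 2-fold higher on the large chip (background 37.5%) and 10 at least 2-fold lower (background 12.7%). For large over small the median was 1.06 against 0.72 for all tested genes, with 42 higher (background 41.9%) and 6 lower (background 12.8%). With each cell rescaled to 1000000 summed mouse values, 29 were higher and 9 lower than on the medium chip (background 29.6% and 18%), and 39 higher and 4 lower than on the small chip (background 31.5% and 15.2%). Rescaling left the Mrp medians at 0.70 and 1.09 and moved those of all tested genes to 0.31 and 0.37. Restricting each chip to cells with spike-ins under 50% turned the large over medium median to -0.65 (all tested genes 0.12), with 6 higher and 23 lower (background 24.8% and 17.3%). The large over small median was then 0.20 (all tested genes 0.12), with 22 higher and 12 lower (background 26.7% and 25%). Under this limit the medium chip had 7 cells, and rescaling the cells gave a large over medium median of -0.18 (all tested genes 0.21). The cause of the change of sign was not tested. Fewer expressing cells and less RNA per cell cannot be told apart in a chip mean.

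Single cells carried many of the medium-chip and small-chip means, for Mrp genes as for tested genes in general. The cell with the highest value held a median of 12.3% of a gene's summed value on the large chip, 45.2% on the medium chip and 45.2% on the small chip (all tested genes 17.3%, 48.4% and 46.1%). It held over 50% of the sum for 1, 29 and 32 of the 76 genes (background 7.27%, 47.4% and 44.4%). Medium-chip cell 21 was the highest cell for 21 genes, and small-chip cells 10 and 36 for 10 and 9. In all 3 of these cells the summed mouse values exceeded 3000000, against a median of 966651 on the medium and 910315 on the small chip. Medians over cells were 0 for 63 genes on the medium chip, 64 on the small chip and 1 (Mrps6) on the large chip. A median above 0 needs a value in at least 50% of cells, which 23.4%, 23.9% and 77.6% of all tested genes had. No Mrp gene had a higher median in a smaller chip than in the large one, a count not made for all tested genes. A gene with a median of 0 on the smaller chip could not enter that count. Medians at least 2-fold lower on the large than on the medium and small chip were seen for 0 and 0 Mrp genes. Of all tested genes 0.159% and 0.624% met that 2-fold rule.

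The 4 largest ratios of large over small belonged to Mrps36 (3.06), Mrpl36 (2.94), Mrps22 (2.89) and Mrps27 (2.75). Mrpl36, a small protein with a bacterial homologue, had large-chip values of 0, 51.2 and 191 (lowest, median, highest) and small-chip values of 0, 0 and 81.2. Its groups overlap, since 10 large-chip cells and 28 small-chip cells were at 0. Mrps22, a mitochondria-specific small-subunit protein, averaged 29.7 ± 39.1 (SD, n = 80) in the large and 3.13 ± 10.1 (SD, n = 39) on the small chip. Cell 24 held 48.7% of the large-chip sum of Mrps27, an RNA-binding protein of the pentatricopeptide repeat type, whose mean was 32.7 with and 17.0 without that cell. Mrps36 had its highest value, 1453, in large-chip cell 54 (39.1 on average without that cell, 56.7 with it). Reads of Mrps36 too may be split among pseudogene copies, which was not tested.

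The 4 smallest ratios belonged to Mrpl49 (-2.49), Mrps5 (-2.23), Mrpl10 (-1.61) and Mrpl44 (-1.45), and each turned positive when the highest cell of each chip was left out. Mrpl49 had a highest value of 5004 in small-chip cell 10, 87.9% of the chip's sum, and a small-chip mean of 146 with and 18.1 without that cell, against 25.2 on the large chip. Mrps5, whose bacterial homologue helps set decoding accuracy, had 6235 in small-chip cell 26 and a mean of 186 with and 27.3 without it, against 38.9 on the large chip. Mrpl10, at the base of the stalk that recruits translation factors, had 1876 in small-chip cell 36 and 3564 in medium-chip cell 23. Mrpl44, a protein with a ribonuclease III-like fold, had 1533 in small-chip cell 36. Without the highest cell of each chip the 4 ratios were 0.33 for Mrpl49, 0.33 for Mrps5, 0.13 for Mrpl10 and 0.30 for Mrpl44. Chosen after their values were seen, 2 further genes of the same kind were Mrpl1 with 9158 in small-chip cell 31 (91.5% of the sum) and Mrpl45 with 6280 in medium-chip cell 18 (89.0%).

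**Figure D3:**
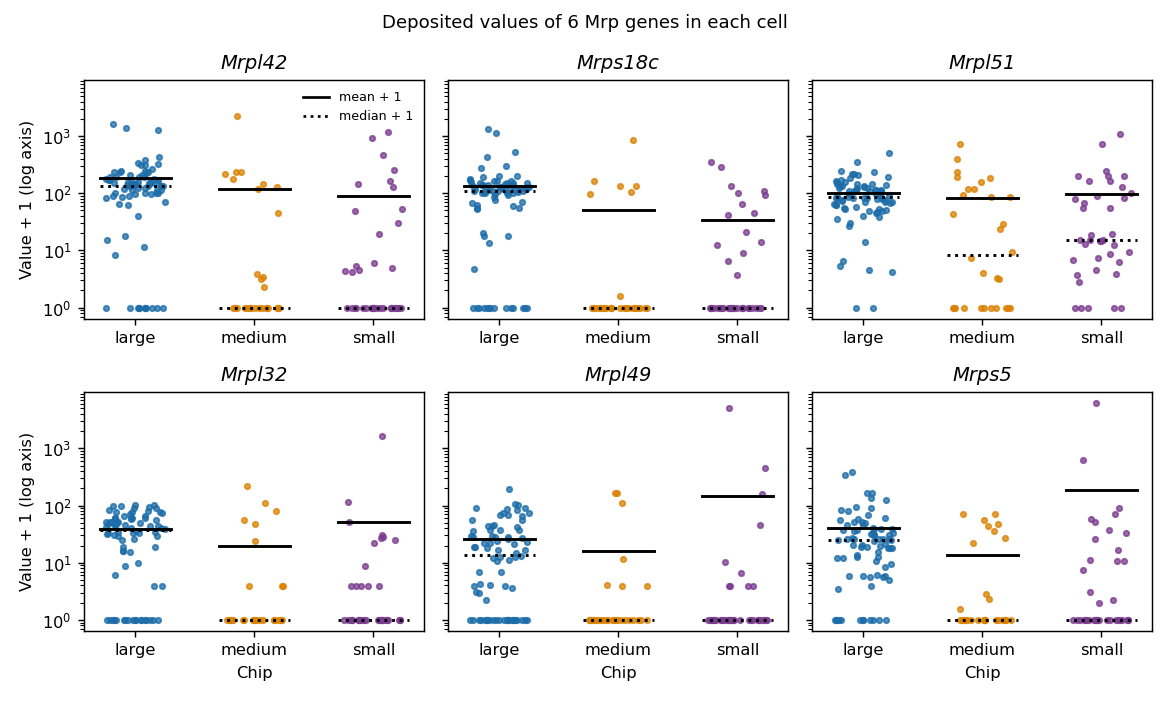
Each point is the deposited value plus 1 of 1 Mrp gene in 1 cell, on a log axis, for the large (n = 80), medium (n = 30) and small (n = 39) chips; solid bars are means and dotted bars medians, both plus 1. In Mrpl49 and Mrps5 the small-chip mean lies far above the median of 0 because of 1 cell at 5004 and 1 at 6235.

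The columns of the table come in an order that mixes the chips and follows known zonation genes, and the labels do not say how it was made. On the large chip the Spearman rho of a gene with the rank of the cell in that order was -0.81 for Cyp2f2, -0.85 for Hal and -0.83 for Sds, which are periportal genes, and 0.86 for Cyp2e1 and 0.78 for Cyp1a2, which are pericentral. On that chip the first columns thus hold periportal-like and the last pericentral-like values. On the medium and small chips Cyp2f2 had -0.66 and -0.72 and Cyp2e1 0.32 and 0.58, but pericentral Glul had -0.11 and 0.17 and periportal Pck1 -0.35 and -0.15, so the order followed zonation less closely there. Whether these genes served to make the order is not stated, and position was taken as the rank within a chip.

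The Mrp share of mouse values was higher towards the first columns on each chip, with a rho of -0.44 in the large, -0.35 on the medium and -0.30 on the small chip (80, 30 and 39 cells). In the first 27 large-chip cells of the order the share was 0.270% ± 0.0443 (SD; median 0.265%, range 0.185% to 0.369%), in the middle 27 it was 0.204% ± 0.0954 (median 0.216%, 0.0327% to 0.372%) and in the last 26 it was 0.225% ± 0.0556 (median 0.214%, 0.128% to 0.387%). The 3 sections overlap, and the first and last means differ by about the SD within a section. The middle section held 13 of the 16 large-chip cells with spike-ins at 50% or more. Without those 16 the medians were 0.265%, 0.236% and 0.214% (25, 14 and 25 cells) and rho was -0.51. Under the same limit rho was -0.11 on the medium chip (7 cells) and -0.31 on the small chip (12 cells).

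**Figure D4:**
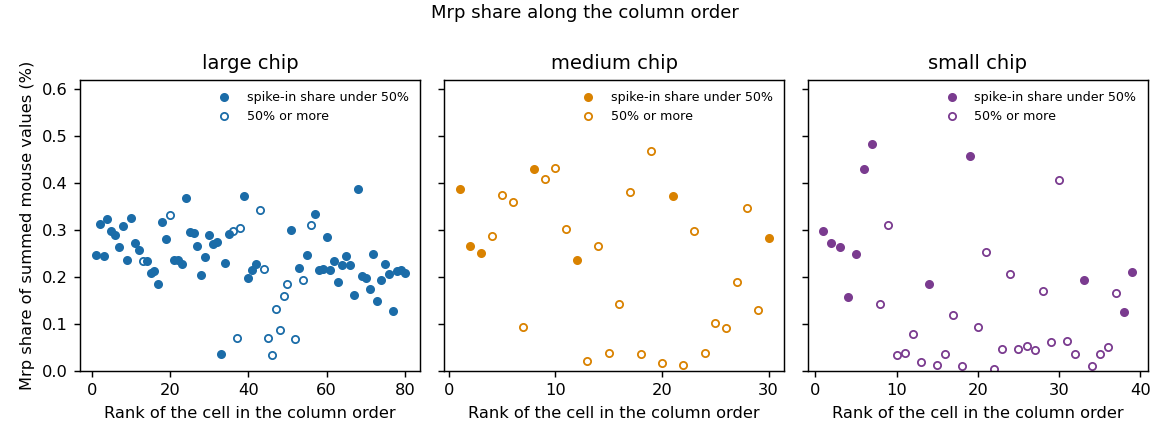
Each point is 1 cell, with its rank in the column order of its own chip on the horizontal axis and the percentage of summed mouse values taken by the 76 Mrp genes on the vertical axis; open points are cells with spike-ins at 50% or more. On the large chip the filled points drift down from a median of 0.265% in the first section to 0.214% in the last, and the open points cluster in the middle.

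Other measures moved with the order too. In large-chip cells with spike-ins under 50%, that share itself had a rho of -0.55 with position (medians 3.78% in the first and 2.24% in the last section), and the Mrp share had a rho of 0.65 with it. With the spike-in share held constant the rho of the Mrp share with position was -0.40 over all 80 cells and -0.23 over those 64. It was -0.22 on the medium and -0.17 on the small chip. Without the 50 genes of highest mean value in the denominator it was -0.26, -0.35 and -0.25, and the large-chip value was thus the one that moved most. Cells with at least 3 endothelial markers numbered 3, 3 and 8 in the sections of the large-chip order and cells with 3 bile duct markers 13, 7 and 4. The Mrp share had a median of 0.222% in large-chip cells with and 0.235% in those without endothelial markers, and 0.246% with and 0.222% without bile duct markers. Without the cells with endothelial markers the rho of the share was -0.47, -0.39 and -0.45; the part of bile duct marker cells in the relation was not tested.

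Gene by gene the relation was shared by many members and weak in each. The median over members of the mean rho of the 3 chips was -0.17 (range -0.29 to 0.03), against -0.10 over all tested genes. In cells with spike-ins under 50% these medians were -0.050 and -0.055, with the 7 medium-chip cells weighing as much as the 64 large-chip cells. By chip the medians over members were then -0.088 (large), 0.099 (medium) and -0.166 (small). Those over all tested genes were -0.018, -0.039 and -0.090. Over all cells the coefficient was negative for 60 of 76 genes on the large chip (background 57.9%), for 72 on the medium chip (background 82%) and for 70 on the small chip (background 74.6%). It was negative in all 3 chips for 52 genes (68.4%, background 39.5%) and positive in all 3 for none (background 3.48%). A gene was called graded when its sign agreed in the 3 chips and its mean rho was at least 0.2 in size. By that rule 21 of 76 Mrp genes (27.6%) were graded towards the first columns (background 15.4%) and 0 towards the last (background 0.692%). With the number of mouse genes above 0 held constant 9 (11.8%) met the rule towards the first columns (background 6.48%) and 0 towards the last (background 1.77%). In cells with spike-ins under 50% 11 (14.5%) and 0 did (background 12.5% and 5.45%). Without the 21 cells with endothelial markers the count was 45 of 76 (background 35.3%). Holding the number of genes above 0 constant moved the chips differently. The median rho over members went from -0.085 to -0.21 (large), -0.24 to 0.010 (medium) and -0.19 to -0.081 (small). Over all tested genes it went from -0.026 to -0.12, -0.18 to 0.038 and -0.11 to -0.028. The rho of the Mrp share was then -0.44, -0.19 and -0.22.

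The graded genes come from both subunits, 14 with Mrpl and 7 with Mrps symbols. The lowest mean rho was that of Mrps31, a mitochondria-specific small-subunit protein, at -0.29 (-0.18, -0.33 and -0.35 on large, medium and small chips in turn). Mrpl30 followed with -0.28 (-0.22, -0.43, -0.19), and its large-chip median was 140 in the first, 16.8 in the middle and 91.8 in the last section. Mrpl51 and Mrpl32, a protein whose import is completed by cleavage through the m-AAA protease, both stood at -0.27. Mrpl32 had a rho of only -0.03 on the large chip, and its mean turned to 0.04 in cells with spike-ins under 50%. Mrpl12, which in the stalk carries the contacts for translation factors, stood at -0.26 (-0.25, -0.33, -0.22). Just inside the limit were Mrpl1 (-0.21) and Mrpl17 (-0.20), and just outside it Mrps17 (-0.196) and Mrps18c (-0.194). Mrps10, a small-subunit head protein, was the only gene with a mean rho above 0 (0.03).

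Within the large chip alone, the first and last sections of the order, taking cells with spike-ins under 50% (25 and 25), can be set side by side. The mean was higher in the first section for 56 of 76 Mrp genes (73.7%; 62.3% of all tested genes), and the median log2 ratio was 0.31 against 0.22 for all tested genes. Among the Mrp genes 6 (7.89%) were at least 2-fold higher in the first section and 0 in the last, against 15.1% and 10.2% of all tested genes. Differences of 2-fold or more between the sections were thus less frequent among Mrp genes than among tested genes. Nuclear genes of oxidative phosphorylation, whose products work beside those made on this ribosome, had larger values. Of these, 75 of 80 had the higher mean in the first section, and their median ratio was 0.49. Cytosolic ribosomal protein genes had a median ratio of 0.09. Over all cells of the 3 chips 53 of 80 and 12 of 80 genes of these lists were graded towards the first columns (background 15.4%). In cells with spike-ins under 50% the counts were 22 and 3 (background 12.5%), with 1 and 3 towards the last columns (background 5.45%). With the number of genes above 0 held constant 19 and 1 were graded towards the first columns (background 6.48%).

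**Figure D5:**
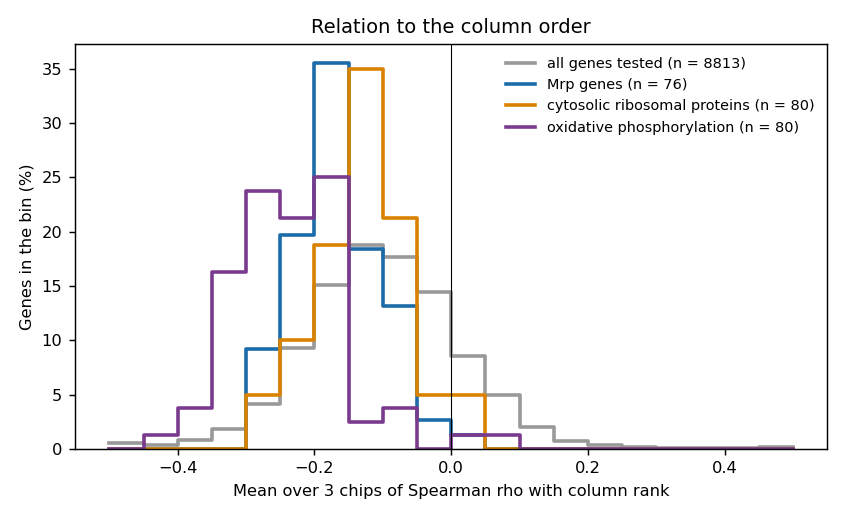
The horizontal axis is the mean over the 3 chips of Spearman's rho between a gene's value and the rank of the cell in the column order, in bins of 0.05 with values beyond the axis placed in the end bins; the vertical axis is the percentage of genes of a list in the bin. Mrp genes (median -0.17) lie between cytosolic ribosomal protein genes (-0.13) and oxidative phosphorylation genes (-0.24), and all tested genes have a median of -0.10.

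The 3 paralogues of the Mrps18 family could be compared because the ribosome holds each of them at its own site. Per kb of transcript the large-chip means were 209 for Mrps18c, 76.5 for Mrps18a and 66.3 for Mrps18b. Their large-chip medians were 111, 46.8 and 41.2, with lowest values of 0 and highest values of 1314, 928 and 323, so all 3 overlap. Mrps18a and Mrps18b were both graded, with mean rho of -0.25 and -0.24, and Mrps18c at -0.19 was not. Ratios of large over small were 1.99 for Mrps18c, 1.18 for Mrps18a and 1.08 for Mrps18b, and that of Mrps18b turned to -0.23 in cells with spike-ins under 50%.

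Mrp genes varied together among large-chip cells more than genes in general, as a description of these 80 libraries. The median rho over the 2850 pairs of Mrp genes was 0.33, against 0.20 over all pairs of tested genes. With the number of genes above 0 held constant it was 0.19 against 0.084, and over the 64 cells with spike-ins under 50% it was 0.081 against 0.038. Mrpl16 with Mrpl55 (0.66) and Mrpl27 with Mrpl51 (0.64) had the highest rho, and 0.51 and 0.60 with the number of genes held constant. In the 64 cells they had 0.44 and 0.38, and ranked 7 and 46 among the pairs.

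Several Mrp genes start close to another gene on the opposite strand. A protein-coding start on the opposite strand lay within 500 bases for 24 of the 76 (31.6%), against 14.9% of the 8429 tested protein-coding genes. Partners include Psma2 (with Mrpl32), Ndufs6 (Mrpl36), Fau (Mrpl49) and Sars2 (Mrps12). These starts are those of the GENCODE gene models, which can differ from the RefSeq starts of the windows above. Mrpl36 starts at 73328513 on chromosome 13 in GENCODE, whereas its RefSeq window begins at 73330759. For Mrpl46 and Mrps11 the GENCODE distance is -412 bases, an overlap. Over the 13 pairs with a tested partner the median rho on the large chip was 0.27 (-0.06 to 0.42), and 0.14 with the number of genes held constant. The highest was Mrpl46 with Mrps11, 0.42 and 0.24, which ranked 608 among the 2850 pairs of Mrp genes; in cells with spike-ins under 50% its rho was 0.15. Mrpl46 had large-chip values of 0, 22.6 and 183 (lowest, median, highest) and Mrps11 of 0, 6.18 and 80.1. Exons of 23 Mrp genes, these 2 included, overlap those of another gene in the annotation, and no strand of the counting is stated, so their reads cannot be told apart with certainty.

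Other genes of mitochondrial translation were graded about as often as tested genes overall. Of 47 listed genes 46 were in the table and 41 passed the filter; 6 of the 41 (14.6%, background 15.4%) were graded towards the first columns and 0 towards the last, with a median of the mean rho of -0.10. Of the 6, 3 belong to the 5 ribosomal proteins that carry other symbols: Gadd45gip1 (-0.36), Aurkaip1 (-0.21) and Chchd1 (-0.21), whereas Dap3 (-0.11) and Ptcd3 (-0.16) were not graded. Among 16 translation factors only Tufm, the mitochondrial elongation factor Tu, was graded (-0.21), with a large-chip rho of -0.02. Mitochondrial elongation factor G (Gfm1) had a mean rho of 0.04 and initiation factor Mtif2 one of -0.09. Of 17 assembly factors Fastkd2 (-0.21) and the ribosomal RNA methyltransferase Mrm3 (-0.29) were graded. None of the 3 genes of mitochondrial transcription was: Tfam, Tfb2m and Polrmt had -0.07, -0.06 and -0.13. The median ratio of large over small was 0.98 for the 41 genes, with 20 (48.8%) at least 2-fold higher and 5 (12.2%) lower, near the 41.9% and 12.8% of all tested genes, whose median ratio was 0.72.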

How the data were processed

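Each cell is 1 library and 1 GEO sample; groups are the chips given by the labels. The deposited table is a normalised signal: per the submitters' processing notes reads passed CASAVA 1.8.2, Bowtie 0.12.9 and RSEM 1.2.3 on mm10, and the name of the table mentions SCnorm (normalisation) and WaveCrest (cell ordering), which the labels do not describe. Values have several step sizes per cell, so how deeply each cell was read is not known. The members, lists and tests were chosen with earlier results of these data known. Tested genes were above 0 in at least 20% of cells. Named genes were, by rule, the 5 Mrpl and 5 Mrps genes of highest level per kb, the 4 largest and 4 smallest ratios of large over small, the 4 lowest mean rho and the Mrps18 paralogues; Mrps6, Mrps30, Mrpl3, Mrpl19, the genes above 0 in all 64 cells, Mrpl12, Mrps10, the neighbours of the rho limit, and the pairs were named after their values were seen. Transcript length is the median over GENCODE release 21 basic protein-coding transcripts. Chips were compared as log2 ratios of means with a pseudocount of 1; position relations are Spearman rho within a chip, partial where a covariate is held constant. Detection intervals are Clopper-Pearson. No doublet caller was run. Of the listed genes 5 were matched by an older symbol. Scripts were tested on simulated data. Promoters are RefSeq (GRCm38.p6). Alternatives covered pseudocount, rescaling, filters, size rules, and cells or chips left out. Tools were Python 3.11.15 with pandas 2.3.3, numpy 2.4.6, matplotlib 3.10.9 and scipy 1.17.1.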

Additional observations from a re-analysis of the deposited data

How the results depend on the processing

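No paired analysis was possible because each chip is 1 sample and the numbers in the labels only count cells. Detection limits of 1 or 10 changed the counts of genes above 0 in at least 20% of cells by less than 1.5 times; at 50% of the cells they were 13 in the medium and 12 in the small chip. The chip ratios depended most on how cells are averaged. With the mean of log2(value + 1) the median ratios were 2.44 (medium) and 2.56 (small), with 72 and 75 genes higher (background 65% and 65.6%) and 0 and 0 lower; Mrpl10, Mrpl44, Mrpl49 and Mrps5 turned to 1.15, 1.32, 1.94 and 1.95. With medians over cells, chosen after seeing the data like the next 2 settings, they were 4.65 and 4.61, with 74 and 74 higher (background 66.4% and 65.8%; medians 2.09 and 2.07) and 0 and 0 lower, and the same 4 genes had 2.47, 2.06, 3.79 and 4.61. Without each gene's highest cell 39 and 64 genes were higher (background 56.2% and 60.4%) and 1 and 0 lower, the small-chip median was 1.79, and the 4 genes had 0.13, 0.30, 0.33 and 0.33. With spike-ins under 50% the medians were -0.65 and 0.20, with 6 and 22 higher and 23 and 12 lower, Mrpl42 at -0.46 and Mrps18b at -0.23; rescaling those cells gave a medium-chip median of -0.18, 4 and 22 higher (background 22.6% and 26.4%), and Mrpl42 at -0.12. With only genes above 0 in at least 50% of cells 6 and 2 were lower. The share over all genes under that filter was not computed, so these counts have no background. The cause of these changes was not tested.

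The median Mrp share without the 50 most abundant genes in the denominator was 0.565% in the large and 0.565% in the medium chip, and the small-chip median was 0.256% under the spike-in limit. The count of 21 graded genes was 9 with the number of genes held constant (median rho -0.083; all tested genes -0.033), 11 under the spike-in limit (median rho -0.050; all tested genes -0.055; Mrpl32 at 0.042), 38 without the large chip (background 31.4%), 13 without the medium chip (12.2%), 49 and 0 with size rules of 0.1 and 0.3 (34.7% and 3.55%), and, in settings added after seeing the data, 9 with the spike-in share held constant (7.51%) and 45 without cells of 3 endothelial markers (35.3%). The rho of the Mrp share in the large chip was -0.32 by Pearson and -0.26 without the 50 genes. In the medium chip it was -0.19 with the number of genes held constant, -0.11 under the spike-in limit (7 cells) and -0.22 with the spike-in share held constant. In the small chip it was -0.22 and -0.17 with those held constant, -0.45 without endothelial-marker cells and -0.20 without the 5 cells above 3000000 summed values. The median rho between members was 0.19 with the number of genes held constant and 0.081 under the spike-in limit. Of the 41 other translation genes tested, 2 were graded towards the last columns under the spike-in limit (background 5.45%). The other 99 values of this kind, those of single named genes not counted, stayed within their limits. For the ratios and mean rho of named genes 388 values stayed within their limits, 102 moved and 16 changed sign. Only some of those changes are given above.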
